A study of Mus musculus with 6 samples.

Results

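The replication-dependent histone genes and Slbp were followed in C2C12 cells, an established line of mouse myoblasts (muscle precursor cells) that stop dividing and fuse when serum is lowered. The cells carried a control small interfering RNA (si-NC) or one that targets SYISL, a long non-coding RNA (si-SYISL), and had then spent 2 days in differentiation medium with 2% horse serum. By the labels, each group holds 3 one-colour Agilent arrays (6 in all). The labels give no genotype, clone or allele beyond the cell line, which all 6 arrays share. The members are Slbp and the clustered histone genes, taken by symbol: 70 histone genes stand in the reference table (RefSeq, assembly GRCm38.p6), 3 of them pseudogenes. Of these, 47 had a probe on the array (52 probes in all) and 23 had none. Together with Slbp, 45 members passed the filter on dim probes, among 28555 features kept. The filter kept probes with signal well above background on every array of si-NC, of si-SYISL or of both.

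Replication-dependent histones are the H1 linker histone and the core histones H2A, H2B, H3 and H4 that package newly made DNA, and their genes lie in clusters and are transcribed mainly in S phase. Their mRNAs lack introns and, unlike nearly all other mRNAs, end in a conserved stem-loop in place of a poly(A) tail. The stem-loop binding protein encoded by Slbp attaches to it and acts in the processing, export, translation and decay of these mRNAs. In differentiating muscle cells, which leave the cell cycle, part of the remaining histone mRNA can carry a poly(A) tail. The labels do not state the primer used to label the RNA, so which of these forms the arrays read was not tested.

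Between 78.2% and 84.6% of spots were well above background on the si-NC arrays and between 87.9% and 90.6% on the si-SYISL arrays, and 0 spots were saturated. Within each group, replicates 1 and 3 could not be told apart beyond the scatter among spots of one probe (chi-square per probe 0.154 to 0.208, where the 13 remaining array pairs gave 27.9 to 191). The deviations of spots from their probe mean correlated at 0.928 to 0.936 in these pairs and at 0.326 to 0.615 in the others. These pairs thus shared most of the scatter among spots. Whether each pair was a single hybridisation read more than once was not tested. Each such pair was averaged and counted as 1 sample, which leaves 2 samples in each group. Nothing in the labels says that replicates were separate cultures, so a p-value here covers the spread among these samples alone, which may be technical. Levels below are log2 intensity minus the array's 75th percentile, and the 2 samples of a group are given in the order replicates 1 and 3, then replicate 2. Differences are si-SYISL minus si-NC ± SE (n = 2 samples in each group), relative to the median of all features, which was 0.16 before this subtraction. The p-values test the difference before it. Genes called higher or lower in both si-SYISL samples are also judged by levels before it, so such a gene can have a difference of the other sign.

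No member passed the threshold. The limma fit called 0 of 28555 features at an adjusted p of 0.05 (0%; smallest adjusted p 0.0842), and 6462 features had an unadjusted p under 0.05 (22.6%). At that unadjusted level, 16.8% of all features were higher and 5.85% lower in si-SYISL. RNA came from whole cultures, so fewer cells of a type and less RNA per cell cannot be told apart. All 10 muscle markers were kept: 5 were higher and 2 lower in both si-SYISL samples, beside 46.3% and 15.8% of all features. Markers of macrophages (5 of 6 tested), endothelium (5 of 5) and adipocytes (4 of 5) had median differences of -0.07, 0.02 and -0.00. The pair with the smallest p in each was Lyz2 (0.53 ± 0.22) and Ptprc (0.19 ± 0.20), Pecam1 (0.02 ± 0.12) and Kdr (0.00 ± 0.11), and Fabp4 (0.29 ± 0.17) and Plin1 (0.05 ± 0.25), none past the threshold. Lyz2 was well above background on 1 si-NC array. No probe was assigned to SYISL, so the knockdown was not checked here.

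Slbp was lower in both si-SYISL samples. Its levels were -0.04 and -0.00 in si-NC and -0.55 and -0.60 in si-SYISL, so the groups did not overlap and the samples of a group lay close together. The difference was -0.72 ± 0.11 (limma, adjusted p = 0.127). A second Slbp probe gave -0.56 and was also lower in both si-SYISL samples. The Slbp difference lay between -0.78 and -0.58 in every alternative run, with an adjusted p from 0.0024 (the arrays taken as 6 samples) to 0.289. It was 0.0497 with a variance trend.

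Promoters of Slbp and of 5 histone genes, chosen after their values were seen, are shown so that the genes can be told apart by more than a name. Each is a RefSeq window of 300 bases (GRCm38.p6), 250 before to 50 after the start, read 5′ to 3′ on the gene's strand. Capitals mark CCAAT or its reverse complement ATTGG, the octamer ATTTGCAT and the TATA box TATAAA, as found by a search of both strands. The Slbp window lies at chr5:33652525-33652824 (minus strand) and holds CCAAT 3 times.
Slbp: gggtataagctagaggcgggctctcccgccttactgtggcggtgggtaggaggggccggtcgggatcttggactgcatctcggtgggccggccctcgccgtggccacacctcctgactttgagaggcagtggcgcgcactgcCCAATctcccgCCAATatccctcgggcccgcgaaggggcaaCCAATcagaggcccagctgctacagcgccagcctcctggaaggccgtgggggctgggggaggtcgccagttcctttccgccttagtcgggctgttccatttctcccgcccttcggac
H2ac18 (chr3:96245247-96245546, plus strand) and H2ac19 (chr3:96240325-96240624, minus strand) code for H2A and lie near each other. Their windows share an unbroken run of 219 bases, offset by 40, and are shown because their probes read differently.
H2ac18: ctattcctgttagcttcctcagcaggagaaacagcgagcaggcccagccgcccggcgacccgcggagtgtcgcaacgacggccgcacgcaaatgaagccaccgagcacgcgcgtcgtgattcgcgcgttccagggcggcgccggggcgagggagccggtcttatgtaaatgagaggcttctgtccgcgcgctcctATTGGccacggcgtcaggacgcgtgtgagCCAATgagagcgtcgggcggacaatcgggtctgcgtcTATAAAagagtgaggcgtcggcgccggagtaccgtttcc
H2ac19: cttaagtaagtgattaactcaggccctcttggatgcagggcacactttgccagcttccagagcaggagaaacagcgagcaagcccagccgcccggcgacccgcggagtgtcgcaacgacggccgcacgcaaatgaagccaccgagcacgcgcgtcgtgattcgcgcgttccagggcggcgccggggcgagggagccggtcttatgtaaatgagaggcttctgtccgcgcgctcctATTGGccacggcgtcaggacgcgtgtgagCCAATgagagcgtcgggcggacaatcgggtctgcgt
H2bc23 (chr13:21810150-21810449, minus strand) had the highest difference among the probes that stand for a member, and H2bc18 (chr3:96269450-96269749, plus strand) carries the octamer found in part of the H2A and H2B promoters.
H2bc23: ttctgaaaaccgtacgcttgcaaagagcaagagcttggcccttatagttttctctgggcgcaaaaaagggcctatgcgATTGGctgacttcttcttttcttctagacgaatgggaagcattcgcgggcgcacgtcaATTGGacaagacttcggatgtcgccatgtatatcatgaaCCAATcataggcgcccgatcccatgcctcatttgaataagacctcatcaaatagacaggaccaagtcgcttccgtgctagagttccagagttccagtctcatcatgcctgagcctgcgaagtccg
H2bc18: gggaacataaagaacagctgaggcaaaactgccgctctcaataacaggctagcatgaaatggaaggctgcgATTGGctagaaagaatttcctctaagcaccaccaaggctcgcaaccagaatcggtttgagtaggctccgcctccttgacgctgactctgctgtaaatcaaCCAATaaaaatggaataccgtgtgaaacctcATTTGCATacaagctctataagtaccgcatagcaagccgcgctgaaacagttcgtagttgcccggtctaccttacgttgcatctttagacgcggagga
H4f16 (chr6:136804382-136804681, minus strand) lies outside the main clusters and its window holds 0 matches to any of these motifs.
H4f16: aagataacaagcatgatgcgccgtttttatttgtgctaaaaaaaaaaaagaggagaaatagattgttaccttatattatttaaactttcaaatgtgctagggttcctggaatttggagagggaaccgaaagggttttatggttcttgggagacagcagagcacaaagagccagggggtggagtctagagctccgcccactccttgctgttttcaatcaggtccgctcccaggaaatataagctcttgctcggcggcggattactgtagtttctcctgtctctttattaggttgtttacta

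The 44 kept histone genes differed little as a group and spread in both directions. Their median difference was -0.09, with a range from -1.28 to 0.91, and 29 of 44 lay below the median of all features (50% by definition). In 17 both si-SYISL samples were above both si-NC samples, in 3 both were below, and in 24 the groups overlapped. The same shares over all features were 46.3%, 15.8% and 37.9%. At an unadjusted p under 0.05 there were 5 higher and 1 lower histone gene. The split into higher and lower depends on the scaling: it was 8 and 8 with the array median in place of the 75th percentile, where 27.7% and 25.0% of all features were higher and lower, and 11 and 10 with quantile normalisation (30.3% and 24.1%). The histone median was 0.02 in the scan that held replicate 3 of each group. That setting has 1 array a group and leaves out both replicate 2 samples. Replicate 3 could not be told apart from replicate 1, so it is not a separate check, and an effect of the scan was not tested.

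**Figure D1:**
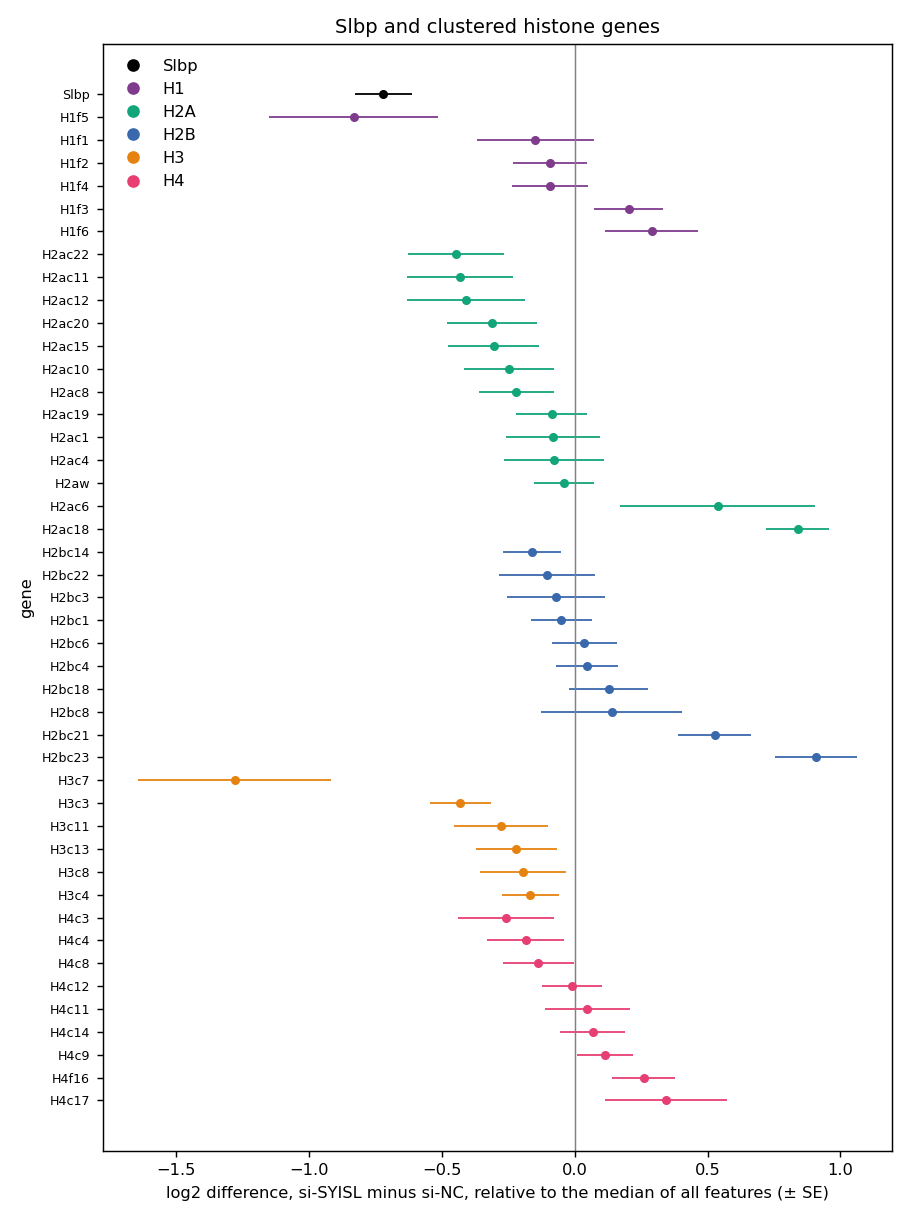
Log2 difference (x axis, si-SYISL minus si-NC, relative to the median of all features) of Slbp and each kept clustered histone gene (y axis), coloured by class, with bars of ± 1 SE from the fit over 2 samples in each group. Slbp lies at -0.72, all 6 H3 genes lie left of 0, and the other classes fall on both sides.

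H3 was the class in which every kept gene lay below the median of all features. All 6 H3 genes did so, here and in each of 21 alternatives, and their median was -0.25 (-0.37 to -0.18 over the alternatives). Median scaling, the replicate block and the variance trend cannot change these values, so the 21 are not separate checks. Before the subtraction the H3 median was -0.09. H3c11, H3c13, H3c8 and H3c4 then stood at -0.11, -0.06, -0.03 and -0.00, with overlapping groups. H3 forms the core tetramer of the nucleosome with H4. H3c7 had the lowest difference of all members: its levels were -1.26 and -1.27 in si-NC and -1.87 and -2.89 in si-SYISL. Both si-SYISL samples were low, and the sample of replicate 2 was the lower. The difference was -1.28 ± 0.36 (limma, adjusted p = 0.192), -0.72 without si-SYISL replicate 2 and -1.82 without si-SYISL replicates 1 and 3.

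H3c3 was the other H3 gene with groups that did not overlap. It had levels of 1.91 and 1.82 in si-NC and 1.56 and 1.64 in si-SYISL, a difference of -0.43 ± 0.11 (adjusted p = 0.252 in limma). H3c11 and H3c13 differed by -0.28 ± 0.18 and -0.22 ± 0.15, with overlapping groups. With samples left out these ranged from -0.44 to -0.10 and from -0.35 to -0.07. H3c4, whose levels were 4.03 and 3.98 in si-NC and 3.99 and 4.01 in si-SYISL, was level across the samples, and its difference of -0.17 is that of the median of all features taken off. H3c1 had a probe that was well above background on 0 si-NC arrays and 1 si-SYISL array and was not tested. That dim probe read 0.17, above the median of all features. The run with no filter also kept to the 6 H3 genes and left H3c1 out.

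H4 is the partner of H3 in that tetramer. Of 9 kept H4 genes, 6 were higher in both si-SYISL samples and 0 were lower, beside 46.3% and 15.8% of all features, with a median of 0.05. That median was -0.02 with normexp background, -0.02 without si-NC replicates 1 and 3 and -0.01 without si-SYISL replicates 1 and 3, and with median scaling the counts were 3 higher and 2 lower (27.7% and 25.0% of all features). H4f16, the single H4 gene on chromosome 6, had levels of -2.87 and -2.77 in si-NC and -2.34 and -2.46 in si-SYISL. Its groups did not overlap, and the difference was 0.26 ± 0.12 (limma, adjusted p = 0.166). Its second probe was well above background on 0 of 6 arrays.

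H4c17 had levels of -5.39 and -4.81 in si-NC and -4.67 and -4.52 in si-SYISL, so the si-NC samples lay farther apart than the si-SYISL samples did from the nearer one. It differed by 0.34 ± 0.23 (adjusted p = 0.265 in limma), by 0.05 without si-NC replicates 1 and 3 and by 0.66 without si-NC replicate 2. H4c9 differed by 0.11 ± 0.11, and 0.32 with its other probe. For H4c14, the main probe gave 0.07 ± 0.12. A dim second probe gave 1.27, on the strength of si-SYISL replicate 2 at -4.27, while the other 5 arrays read between -7.07 and -6.53. The probes of H4c12 both gave -0.01.

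The H2A class had a median of -0.22 over 13 kept genes, with 11 below the median of all features. In both si-SYISL samples 3 were higher and 0 lower, beside 46.3% and 15.8% of all features. One of the 3, H2ac6, passed the filter only through si-SYISL. Among genes above background on all 6 arrays 2 of 12 were higher, beside 43.7% of all such features. In the scan of replicate 3 the class median was 0.06, and without si-NC replicate 2 it was -0.05. H2A and H2B form the dimers at the outside of the nucleosome. H2ac18 stood apart from the rest of its class: its levels were 1.42 and 1.55 in si-NC and 2.53 and 2.44 in si-SYISL. Both si-SYISL samples were high by more than the spread within either group. The difference was 0.84 ± 0.12 (limma, adjusted p = 0.0939), with an adjusted p of 0.0422 after normexp background correction and 0.0122 with a variance trend.

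H2ac19, chosen for comparison after its values were seen, had levels of 2.30 and 2.52 in si-NC and 2.53 and 2.43 in si-SYISL. Its groups overlapped and it differed by -0.09 ± 0.13 (adjusted p = 0.727 in limma). Thus the 2 genes that share most of the promoter window shown above gave different readings, a contrast that was not tested. Histone genes of a class are near copies of one another and the probe sequences are not in the files used here, so which copies each probe reads was not tested.

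Of the H2A genes, 9 had bright probes (in the highest of 4 equal groups of all features by mean level). H2ac18 and H2aw of these were higher in both si-SYISL samples. The other 7, grouped after their values were seen and so left with no test, are H2ac10, H2ac11, H2ac12, H2ac15, H2ac19, H2ac20 and H2ac22, with a median difference of -0.31 and overlapping groups in each. Their median deviation from the gene means was -0.11 and 0.34 under si-NC and -0.01 and -0.21 under si-SYISL, and the si-NC sample of replicate 2 was the highest in each but H2ac19. H2ac22 showed it with 2.26 and 2.65 in si-NC and 2.27 and 2.08 in si-SYISL. Its difference was -0.45 ± 0.18 (adjusted p = 0.366 in limma), and -0.23 without si-NC replicate 2. H2ac11 had 2.40 and 2.88 in si-NC and 2.44 and 2.30 in si-SYISL, a difference of -0.43 ± 0.20 (-0.17 without si-NC replicate 2).

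H2ac15 was read by a pair of probes that differed in size. The brighter gave -0.30, with overlapping groups. The dimmer read between -1.56 and -0.93 on the si-NC arrays and between -2.29 and -2.24 on the si-SYISL arrays. It was lower on all si-SYISL arrays, with a difference of -1.20 ± 0.23 when every probe was tested on its own (limma, adjusted p = 0.141). H2ac6 was near the detection limit: its probe was well above background on 1 of 3 si-NC arrays and 3 of 3 si-SYISL arrays, and it differed by 0.54 ± 0.37. That value was 0.03 without si-NC replicates 1 and 3 and 1.06 without si-NC replicate 2. H2ac21 was well above background on 0 arrays of either group.

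**Figure D2:**
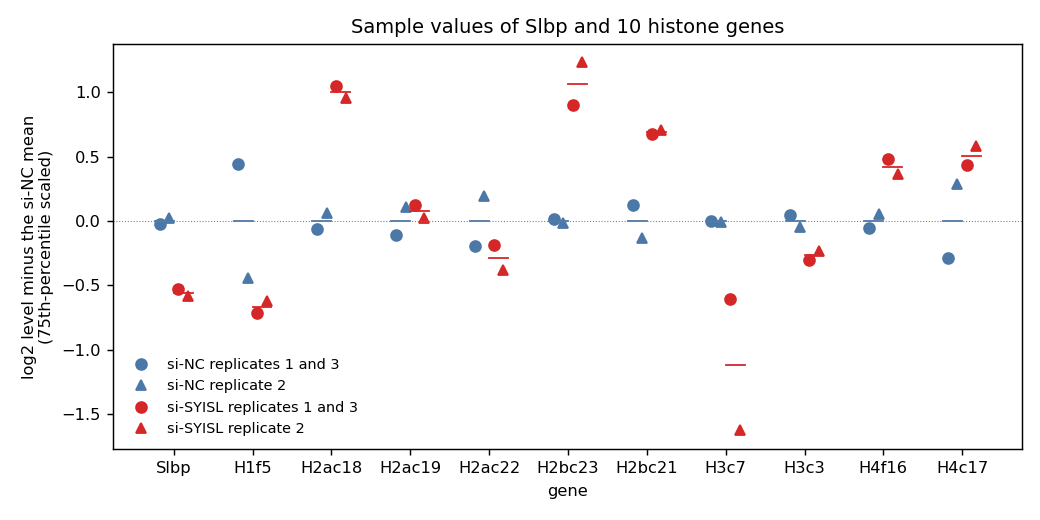
Sample levels of Slbp and 10 histone genes chosen after their values were seen (x axis), as log2 level minus the gene's mean in si-NC (y axis, before the median of all features was subtracted). Circles are the averaged replicates 1 and 3, triangles are replicate 2 and short lines are group means. Slbp, H3c7 and H3c3 lie lower in both si-SYISL samples, H2ac18, H2bc23, H2bc21, H4f16 and H4c17 higher, and the groups of H2ac19 and H2ac22 overlap.

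Among H2B genes the largest differences were upward. Of 10 kept, 6 were higher in both si-SYISL samples and 0 lower, beside 46.3% and 15.8% of all features, and the median was 0.04. That median was -0.03 without si-SYISL replicate 2. With median scaling 2 were higher and 0 lower (27.7% and 25% of all features). H2bc23 had levels of -3.20 and -3.23 in si-NC and -2.31 and -1.98 in si-SYISL. The groups were well separated, and the difference was 0.91 ± 0.15 (limma, adjusted p = 0.107, and 0.0321 with a variance trend).

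H2bc21 had levels of -3.18 and -3.44 in si-NC and -2.64 and -2.61 in si-SYISL. Again the groups did not overlap, and it differed by 0.53 ± 0.14 (limma, adjusted p = 0.128). H2bc18 and H2bc4 were higher in both si-SYISL samples, by 0.29 and 0.21 before the subtraction. Relative to the median of all features they differed by 0.13 ± 0.15 and 0.05 ± 0.12, within about 1 SE. H2bu2 had a probe above background on 0 si-NC arrays and 1 si-SYISL array and was not tested.

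H2bc23 and H2bc21 share one property that the choice of members did not use. Most histone genes are short, and 5 of the 44 kept histone genes span over 1000 bases in the RefSeq annotation, a limit set after the values were seen. All 5 code for H2B: H2bc21 (2667 bases), H2bc23 (3788), H2bc4 (8282), H2bc22 (14079) and H2bc6 (37455). Of these, 4 were higher in both si-SYISL samples, and H2bc22 overlapped, beside 2 higher of the other 5 kept H2B genes and 46.3% of all features. The median of the 5 was 0.05. H2bc4 and H2bc6 differed by 0.05 ± 0.12 and 0.04 ± 0.12, within 1 SE of the median of all features. With median scaling 2 of all 10 kept H2B genes were higher, so the contrast by span depends on the scaling. A long span means that the annotation holds a transcript reaching beyond the short gene on either side, and which transcript the probe reads was not tested.

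H1 linker histones, which bind the DNA between nucleosomes, had 6 kept genes with a median of -0.09. Of these, 2 were higher and 1 was lower in both si-SYISL samples, beside 46.3% and 15.8% of all features. Without si-SYISL replicates 1 and 3 the median was 0.05. H1f3 had levels of -5.35 and -5.48 in si-NC and -5.14 and -4.95 in si-SYISL, a difference of 0.20 ± 0.13 (limma, adjusted p = 0.211), and 0.05 with normexp background. H1f5 had levels of -5.13 and -6.01 in si-NC and -6.28 and -6.18 in si-SYISL. Its groups did not overlap, yet the si-NC samples differed by more from each other than the nearer one did from si-SYISL.

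H1f5 differed by -0.83 ± 0.32 (adjusted p = 0.28 in limma), by -0.40 without si-NC replicates 1 and 3 and by -0.31 with normexp background. H1f2 had levels of 3.90 and 3.94 in si-NC and 3.86 and 4.12 in si-SYISL and differed by -0.09 ± 0.14. H1f6 is the testis form of H1. It differed by 0.29 ± 0.17 (-0.01 with normexp background).

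By location, the 35 kept genes of the Hist1 cluster on chromosome 13 had a median of -0.10, with 11 higher and 3 lower. The 7 of the Hist2 cluster on chromosome 3 had a median of 0.07, with 4 higher and 0 lower. Over all features 46.3% were higher and 15.8% lower. H2aw, the kept gene of the Hist3 cluster on chromosome 11, differed by -0.04 (0.12 before the subtraction). These clusters differ in the classes they hold, and they were not tested against each other.

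The level of the probe moved with the difference over all features. Before subtraction, the median of all features was 0.36, 0.17, 0.07 and 0.08 in 4 equal groups of features from dimmest to brightest. The histone genes in the same groups (9, 14, 6 and 15 genes) had medians of 0.09, 0.15, 0.09 and -0.00. The histone median was thus below that of all features among the dimmest and the brightest features and near it in the groups between. The part of probe brightness in these differences was not tested.

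**Figure D3:**
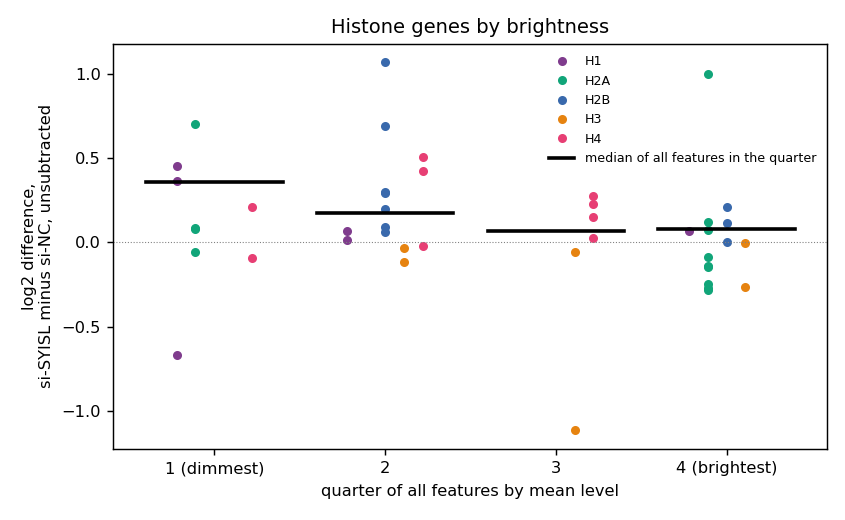
Log2 difference of each kept histone gene before subtraction (y axis, si-SYISL minus si-NC), in 4 equal groups of all features by mean level (x axis), coloured by class. Black lines are the medians of all features in the group, 0.36 in the dimmest and 0.08 in the brightest, and H2ac18 is the point at 1.00 among the brightest.

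The promoters of the members differed in motifs by class. RefSeq windows were matched for 63 of the 71 members. CCAAT, on either strand, was in all windows of H1 (6), H2A (18), H2B (17) and H3 (10) and in 3 of 12 of H4, against 37.4% of all 32851 promoter windows. It is bound by NF-Y, a factor that acts at many cell cycle promoters. The octamer ATTTGCAT, the site of Oct factors, was in 7 of 18 H2A and 7 of 17 H2B windows and in none of the H1, H3 or H4 windows, against 1.74% of all windows. H2A and H2B genes that start back to back have overlapping windows, so a match can count in both classes. For the octamer this holds for H2ac1 with H2bc1, H2ac8 with H2bc8 and H2ac12 with H2bc12.

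The TATA box TATAAA was in 55.6% of the histone windows and 13.6% of all. Of the E2F-type sequences searched, TTTCGCGC was in 5 H2A and 4 H2B windows (14.3% of histone windows, against 0.323% of all). The 4 H2B windows (H2bc7, H2bc11, H2bc12 and H2bc22) overlap those of H2ac7, H2ac11, H2ac12 and H2ac22, which also hold it. These counts are therefore not of separate stretches of DNA. TTTGGCGC was in none, TTTCCCGC in 1 and TTTGCCGC in 2. No motif searched contains another, though matches to the E2F-type sequences can overlap on opposite strands. Among kept H4 genes, those with CCAAT differed by -0.26 and -0.18 (2 genes), and the 6 without it by -0.14 to 0.34. H2B genes with the octamer (6) ranged from -0.16 to 0.14 and those without it (3) from -0.10 to 0.91, and H2A genes with it (7) from -0.41 to 0.54 and without it (6) from -0.45 to 0.84. H2bc6 has 2 windows, of which 1 holds the octamer, and counts on both sides. These ranges overlap for H2A and H2B, and a match is a description of the letters in the window.

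Many H2A and H2B genes start back to back from a shared stretch of DNA. In the annotation 10 pairs of members lay head to head with starts within 1000 bases, each an H2A with an H2B gene, and 3 pairs had both genes kept. H2ac22 and H2bc22 differed by -0.45 and -0.10, H2ac8 and H2bc8 by -0.22 and 0.14, and H2ac1 and H2bc1 by -0.08 and -0.05. In H2ac22 with H2bc22 and in H2ac8 with H2bc8 the H2A gene was the lower, with gaps of 0.34 and 0.36. H2bc23 is paired with H2ac23, which had no probe.

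The genes that act on histone mRNA were taken as lists. Counts in these and the later lists are of genes lower or higher in both si-SYISL samples. Over all features those shares were 15.8% and 46.3%. Of 18 genes of histone mRNA 3′ end processing, 3 were lower and 3 higher in both si-SYISL samples, with a median of -0.11. Casp8ap2 encodes FLASH, which joins the processing machinery of histone pre-mRNA and the histone locus body. It had levels of -0.09 and 0.06 in si-NC and -0.66 and -0.28 in si-SYISL and differed by -0.62 ± 0.17 (adjusted p = 0.226 in limma). Sympk, a scaffold of the cleavage complex, differed by 0.12 ± 0.15.

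Of 10 genes of histone mRNA decay, 2 were lower and 2 higher, with a median of -0.16. Xrn1 encodes the main cytoplasmic 5′ to 3′ exonuclease. Its levels were -1.04 and -0.97 in si-NC and -1.53 and -1.69 in si-SYISL, a difference of -0.77 ± 0.12 (limma, adjusted p = 0.128). Exosc10, a nuclear exosome subunit, was higher in both si-SYISL samples by 0.23 ± 0.17 (0.03 to 0.44 with samples left out).

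Of 14 regulators of histone gene transcription, 12 were tested, 3 lower and 2 higher, with a median of -0.13. Cdk2, whose kinase with cyclin E phosphorylates NPAT to switch on histone genes, had levels of -1.01 and -0.74 in si-NC and -4.49 and -3.74 in si-SYISL. The groups were far apart, and the difference was -3.40 ± 0.29 (limma, adjusted p = 0.0842), read by 1 probe. Nfyb, a subunit of NF-Y, differed by -0.53 ± 0.13 and was lower in both si-SYISL samples. Ccne1, cyclin E1, differed by -0.33 ± 0.16 with overlapping groups. A second, dimmer Ccne1 probe gave -0.61 and was lower in both si-SYISL samples. Npat was well above background on 0 si-NC arrays and 1 si-SYISL array and Ccne2 on 0 arrays, so neither was tested.

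Of 25 histone chaperones and assembly factors, which carry histones to DNA, 8 were lower and 6 higher, with a median of -0.23 (-0.13 with quantile normalisation and -0.06 in the scan of replicate 3). Anp32e, a chaperone that removes H2A.Z, differed by -0.64 ± 0.12 and Ubn2, of the HIRA complex, by 0.47 ± 0.12 (adjusted p = 0.152 and 0.127 in limma). A second Anp32e probe gave -0.29, with overlapping groups. Replacement variants, which can be deposited outside S phase, gave 4 lower and 2 higher of 11, with a median of -0.31 (-0.19 in the scan of replicate 3). Cenpa, the centromeric H3, had levels of 0.11 and 0.35 in si-NC and -0.32 and -0.67 in si-SYISL and differed by -0.89 ± 0.18. H2ax, the variant phosphorylated at DNA breaks, whose mRNA can also end in the stem-loop, differed by -0.57 ± 0.13 and was lower in both si-SYISL samples.

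Histone synthesis is tied to DNA replication, so S phase genes were set beside the histone genes. Of 36 tested, 18 were lower and 1 higher in both si-SYISL samples, beside 15.8% and 46.3% of all features. Of the 36, 35 lay below the median of all features, with a median of -0.34 (-0.22 without si-SYISL replicate 2 and -0.14 in the scan of replicate 3). In the histone genes the same values were 3 lower and 17 higher of 44 (6.82% and 38.6%), 29 below and a median of -0.09. The 2 lists were not tested against each other. Median deviations from the gene means were 0.01 and 0.24 in si-NC and -0.05 and -0.20 in si-SYISL for S phase genes, and -0.10 and 0.07 against -0.01 and 0.06 for histone genes.

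E2f2, an E2F transcription factor, differed by -0.80 ± 0.13, and Uhrf1, which acts in maintenance of DNA methylation, by -0.94 ± 0.19 (adjusted p = 0.13 and 0.148 in limma). A second, dim Uhrf1 probe had the opposite sign (0.27), and the mean of its probes gave -0.34. Pcna, the sliding clamp of DNA polymerase, was lower in both si-SYISL samples (-0.46 ± 0.13), and Mcm2, of the replicative helicase, differed by -0.30 ± 0.17 with overlapping groups. The 26 genes of G2 and mitosis had a median of -0.65, with 19 lower and 0 higher beside 15.8% and 46.3% of all features. Their median deviations were 0.08 and 0.49 in si-NC and -0.05 and -0.50 in si-SYISL, so the replicate 2 samples lay farthest apart. The median was -0.39 without si-SYISL replicate 2 and -0.21 in the scan of replicate 3. Kif11 and Kif2c, kinesins of the spindle, differed by -1.15 ± 0.17 and -1.12 ± 0.18. The muscle structural genes Tnnt3 and Myh3 differed by 1.24 ± 0.16 and 0.62 ± 0.12 (adjusted p = 0.0939 and 0.115 in limma). The muscle markers lower in both si-SYISL samples were Myod1, a transcription factor of myoblasts (-0.78 ± 0.13), and Chrna1, a subunit of the acetylcholine receptor (-0.28 ± 0.11), named after their values were seen.

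**Figure D4:**
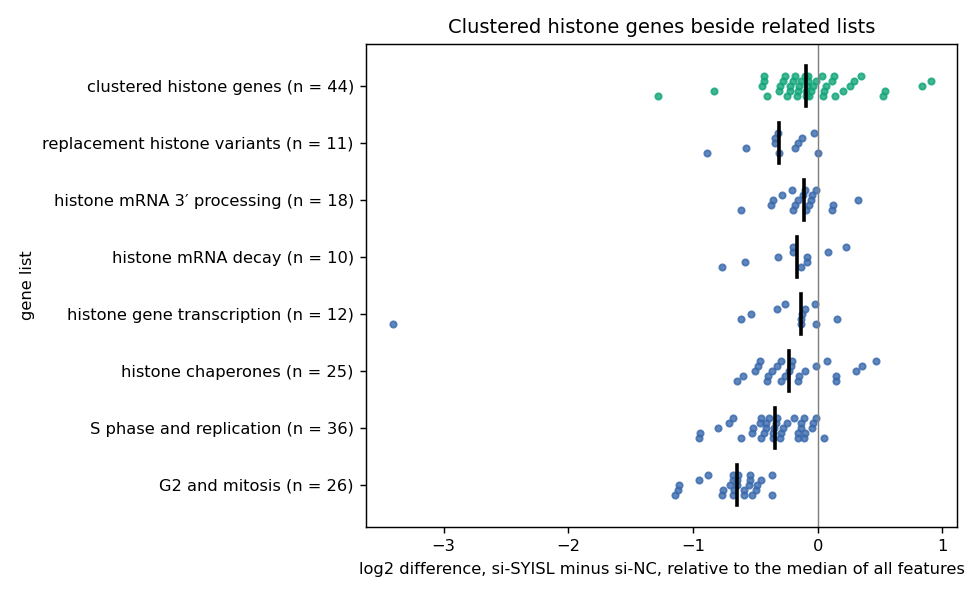
Log2 difference of each tested gene (x axis, si-SYISL minus si-NC, relative to the median of all features) in the clustered histone genes and 7 related lists (y axis, number tested in brackets). Each point is a gene and black lines are list medians, which run from -0.09 for clustered histone genes to -0.65 for G2 and mitosis. Cdk2 is the point at -3.40.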

How the data were processed

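Total RNA (1 µg per sample) was amplified, labelled with Cy3 and hybridised to Agilent arrays, per the labels' protocols. The deposited scanner files hold the processed spot signal as intensity, not normalised between arrays, and, as unit other, 0 or 1 flags marking spots above background, saturated or outlying (per the file headers). The deposited series matrix holds log2 values, used as an alternative only. Its normalisation and direction are not given in the sources used here. Scans were read with Feature Extraction, version 11.0.1.1 per the file headers and 10.5.1.1 per the submitters' processing notes.

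In R 4.3.3, signals were put on a log2 scale and centred per array on the 75th percentile of its non-control spots, without control and outlier spots. Of 39429 probes, 27234 were named by RefSeq accession (GRCm38.p6) and 12195 stood for themselves. The array was annotated on another build. A gene was read by its brightest kept probe. The si-SYISL and si-NC samples were fitted in limma 3.58.1 (lmFit, eBayes, two-sided, Benjamini-Hochberg over all 28555 features), after a test of the fit on simulated data. Files were read with the package data.table, version 1.17.8. Promoters and figures used Python 3.11.15, pandas 2.3.3, numpy 2.4.6 and matplotlib 3.10.9.

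Members and lists were chosen with earlier results of these data known. Genes were named by rule: Slbp; up to 4 members with the smallest p in each class; members with non-overlapping groups and an unadjusted p under 0.05; members with probes of opposite sign or above background in one group; the 2 smallest p of each list; and Ccne1, Ccne2, Npat, Casp8ap2, Pcna and Mcm2.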

Additional observations from a re-analysis of the deposited data

How the results depend on the processing

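Direction was followed for the named genes, not for every kept member. The alternatives were normexp background (offset 50), quantile and median scaling, the deposited matrix, no filter and a stricter one, the mean of probes, 6 arrays as 6 samples, a variance trend, blocks on scan and replicate number, values within each scan, and each replicate left out. Of 45 named genes other than Slbp, 35 kept their sign throughout. Testing every probe was added after seeing the data and gave Slbp an adjusted p of 0.133. Slbp was -0.68 with 6 arrays as samples and -0.72 with a variance trend, both past the threshold. Samples share a replicate number only (deviations of same-numbered samples correlated at -0.00487, -0.0311 and -0.0375). With the replicate block the Slbp adjusted p was 0.199 and 0 features passed, so the block changed no call.

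Features past the threshold numbered 9762 with 6 arrays as samples, 904 with a variance trend, 183 with normexp, 83 with the scan as a block, 1 with median scaling, and 0 to 1379 when samples were left out (276 without si-NC replicate 2, 1379 without si-NC replicates 1 and 3). Of the 45 kept members, 12, 3 (Slbp, H2ac18 and H2bc23), 1 (H2ac18) and 0 were among them in the first 4. Beside these stand the 9762, 904, 183 and 83 of 28555 features. The 12 and the 9762 rest on arrays of a group that could not be told apart being counted as separate samples. Histone genes higher in every si-SYISL sample numbered 8 with median scaling, 11 with quantile scaling, 11 in the deposited matrix, 29 in the scan of replicate 3 and 16 to 26 with samples left out. Those lower numbered 8, 10, 11 and 15 in the same order, and 3 to 14 with samples left out (9 without si-SYISL replicates 1 and 3, 13 without si-SYISL replicate 2, 5 without si-NC replicate 2). Over all features, 63% were higher and 37% lower in the scan of replicate 3. With samples left out, 45.8% to 63.1% were higher and 15.8% to 26.2% lower. The histone median was 0.0208 in the scan of replicate 3, which holds 1 array a group and no test.

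Signs reversed for 10 genes with small differences, and the cause was not tested. When samples were left out, the ranges that crossed 0 were -0.176 to 0.00446 for H1f2, -0.000462 to 0.108 for H2bc4, -0.0203 to 0.170 for H4c14, -0.00704 to 0.271 for Sympk, -0.0343 to 0.0571 for Kdr, -0.0218 to 0.0858 for Pecam1 and -0.221 to 0.328 for Plin1. With normexp, H1f6 was -0.00673, H2bc4 -0.0120, Kdr -0.00780 and Plin1 -0.00471. In the scan of replicate 3, Mcm2 was 0.0645, Pecam1 -0.0588, Plin1 -0.0809 and Ptprc -0.0855. Plin1 was -0.0247 with quantile scaling and -0.0236 in the matrix, Kdr -0.00799 with no filter and Pecam1 -0.00132 with 6 arrays as samples. Signal near background limits H2ac6 and the dim H4 and H1 probes.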
